A study of Homo sapiens with 30 samples.

Results

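The effect of MPC1 knockout on RNA was compared between Molm-14 and THP-1, cell lines of human acute myeloid leukemia (AML), in 12 libraries of a series of 30. The comparison was a difference of differences. For each gene the log2 fold change of knockout over control in THP-1 was subtracted from that in Molm-14, so a positive difference stands for a gene that was raised more, or lowered less, in Molm-14. There were 4 groups of 3 libraries each. Molm-14 KO and THP-1 KO cells carried a CRISPR/Cas9 construct with a GFP marker and 1 guide against MPC1, and Molm-14 EV and THP-1 EV cells, grown in the same medium, carried an empty vector. A further line of the same knockout experiment, MV4-11, gave 6 libraries that shared in the estimate of spread and are set beside some results. The sources used here do not say whether the knockout cells were a pool or a clone, and they do not say whether the 3 libraries of a group came from separate cultures, so the p-values measure only the spread between these libraries. The guide is the same in all lines, no second guide was tested, and the listed medium contains sodium pyruvate. Per the paper, the kinase gene FLT3 is normal in THP-1, whereas Molm-14 holds the mutation called FLT3-ITD, as does MV4-11. The contrast has 1 line of each FLT3 state, so FLT3 cannot be told apart from other features of the lines. Its part in the differences was not tested.

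MPC1 and MPC2 form the carrier that brings pyruvate, the end product of glycolysis, from the cytosol into the mitochondrial matrix. There it is turned into acetyl-CoA, which enters the citric acid cycle or is exported as citrate for the synthesis of fatty acids and sterols. Cells without the carrier can feed the cycle from glutamine or fatty acids instead. Myeloid leukemia cells are held at a stage short of the monocyte or granulocyte, and lines differ in how many genes of the mature cells they express.

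The values were counts per gene, with 5339360 to 9106478 counts per library in the 12 libraries. Levels are given in CPM, the count over the scaled library total times 1000000, and a level is compared between libraries of 1 gene and not between genes. PTPRC, CD33, SPI1 and LYZ, genes of the myeloid lineage, were present in all 12 libraries, whereas CD14 averaged 0.175 CPM in Molm-14 EV and 3.31 CPM in THP-1 EV, and CD68 was under 1 CPM in every one of the 12. The summed level of 22 marker genes of other blood lineages ran from 12.8 to 17.5 CPM in Molm-14 EV, 12.5 to 15.9 in Molm-14 KO, 14.7 to 19.4 in THP-1 EV and 14.96 to 20.4 in THP-1 KO. CD3G, GATA1, HBA1, HBA2, HBG1, GP1BA, PF4 and PPBP were at 0 in all 12, and none of the 5 markers that could be tested was called in the difference (median -0.22, 0 at an unadjusted p under 0.05 and 0 by DESeq2). The libraries Molm-14 EV 2 and THP-1 EV 3 stood apart from the others of their groups on the second principal component, at -18.5 and -20.6, and counts of genes are therefore given with and without them.

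MPC1 itself (ENSG00000060762, chr6:166364919-166383013 on GRCh38, minus strand) was measured at 80.05, 79.002 and 72.9 CPM in Molm-14 EV and 33.2, 40.98 and 38.1 CPM in Molm-14 KO. It was at 100.01, 100.3 and 90.6 CPM in THP-1 EV and 58.9, 53.2 and 50.3 CPM in THP-1 KO. All 6 knockout libraries lay under all 6 controls, and reads of the gene remained in every one of them. The log2 fold change was -1.04 ± 0.09 (SE) in Molm-14, with an adjusted p of 3.41e-08, and -0.84 ± 0.09 in THP-1, with an adjusted p of 6.32e-06. The difference between the lines was -0.20, with a 95% interval of -0.47 to 0.07 and an adjusted p of 0.810, so a difference in the loss of MPC1 RNA was not shown, and the interval bounds it. RNA level does not measure how much carrier protein was left. MPC2, the partner subunit, was at 95.5, 82.9 and 90.9 CPM in Molm-14 EV and 78.8, 83.2 and 80.9 in Molm-14 KO. It was at 86.05, 87.8 and 75.6 CPM in THP-1 EV and 95.6, 91.8 and 91.98 in THP-1 KO. Neither line passed the test for MPC2, and its difference was -0.31 ± 0.13 with an adjusted p of 0.528.

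Of 14490 genes tested, 111 (0.766%) had a knockout effect that differed between the lines at a false discovery rate of 5%. The difference was positive for 75 genes (0.518% of those tested) and negative for 36 (0.248%). At an unadjusted p under 0.05 there were 1130 genes, where 724.5 would be expected if no gene differed. In the 2 lines taken alone, knockout changed 348 genes in Molm-14 (2.4%) and 13 in THP-1 (0.0897%). In Molm-14, 194 (1.34%) were higher and 154 (1.06%) lower, and in THP-1, 8 (0.0552%) were higher and 5 (0.0345%) lower. The count of 111 became 82 when Molm-14 EV 2 and THP-1 EV 3 were both left out, and 78 of those were among the 111. That setting gave 243 genes in Molm-14 and 6 in THP-1. The median standard error of the difference was 0.154 over the 8853 genes of at least 8 CPM in both lines, so differences well under 0.5 on the log2 scale could seldom pass at this depth.

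Most of the 111 genes were genes that moved in Molm-14. Among the 75 with a positive difference, 68 were called in Molm-14, 2 in THP-1 and 5 in neither line. Their median log2 fold change was 0.96 in Molm-14 and -0.08 in THP-1, and the change in Molm-14 was larger in size than that in THP-1 for 71 of them. Among the 36 with a negative difference, 30 were called in Molm-14, 2 in THP-1 and 4 in neither, with medians of -0.81 in Molm-14 and 0.14 in THP-1. No gene of the 111 was called in both lines. The 3 genes called in both, MPC1, ARRDC4 and S100A8, changed in the same direction in both. The other 250 genes called in Molm-14 were not shown to differ between the lines, since 98 of the 348 (28.2%) passed the test of the difference. These counts follow in part from the test, because a gene with a large effect in 1 line is the more likely to be called in the difference.

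**Figure D1:**
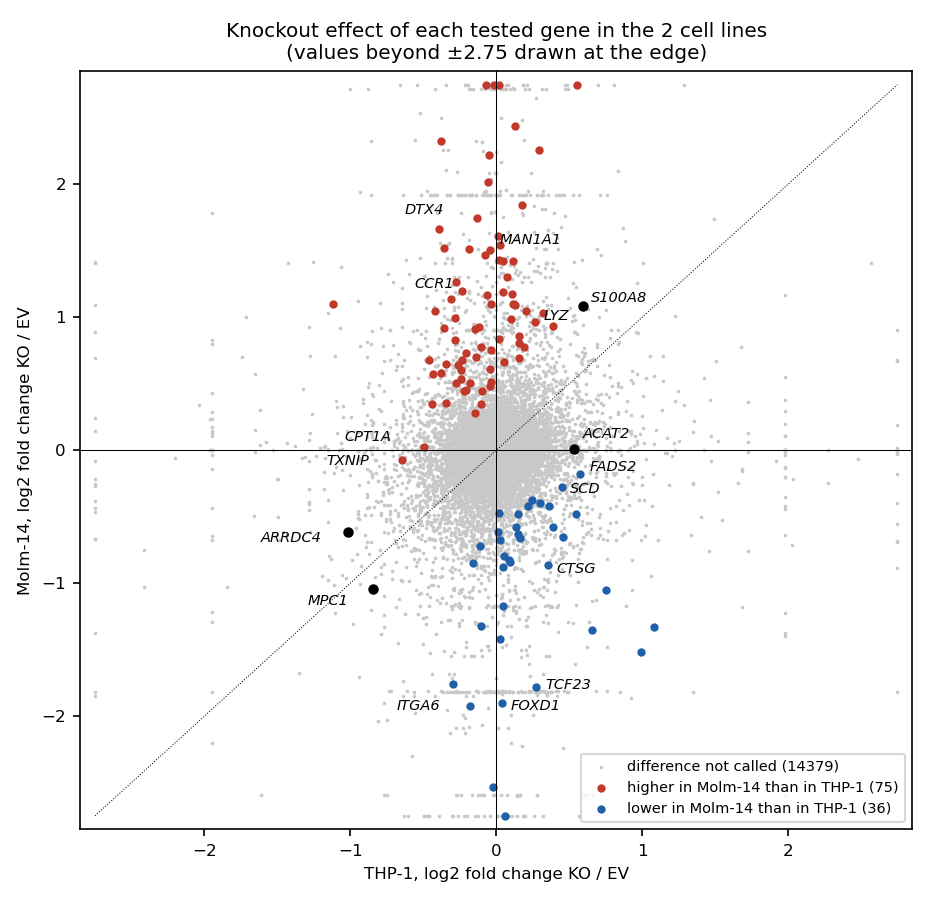
Log2 fold change of knockout over control in THP-1 (horizontal axis) and in Molm-14 (vertical axis) for each of 14490 genes, with 75 genes of positive difference in red, 36 of negative difference in blue, 4 other named genes in black and the dotted line at equal effects. The coloured genes lie mostly along the vertical axis, with TXNIP, CPT1A, SCD and FADS2 near the horizontal one, and MPC1 lies near the dotted line.

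The negative difference with the smallest adjusted p belonged to ITGA6 (ENSG00000091409, chr2:172427354-172506459), the integrin alpha 6 subunit that binds laminin in the extracellular matrix. ITGA6 was at 178, 169.7 and 192 CPM in Molm-14 EV and 48.2, 44.7 and 49.1 CPM in Molm-14 KO. It was at 20.9, 17.5 and 16.7 CPM in THP-1 EV and 17.9, 16.8 and 14.1 CPM in THP-1 KO. The Molm-14 groups were far apart and the THP-1 groups overlapped. ITGA6 fell by 1.93 ± 0.11 on the log2 scale in Molm-14, was at -0.18 ± 0.14 in THP-1, and the difference was -1.75 ± 0.18 with an adjusted p of 3.27e-06. In MV4-11, which held it at a low level, ITGA6 was called in the opposite direction, with a log2 fold change of 0.54 and an adjusted p of 0.0356. Of the 29 integrin and adhesion genes tested it was the 1 member called in the difference (0.766% of all genes tested were called). The list had a median difference of 0.08 beside -0.01 over all genes tested. ITGAL, the alpha chain of the leukocyte integrin LFA-1, stood at 0.56 with an adjusted p of 0.0817, and DESeq2 called it.

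FBN2, MFAP4, COL8A2 and OLFML3, whose products are secreted, are given together here, a grouping made after their values were seen. FBN2, which encodes the microfibril protein fibrillin-2, was at 52.5, 67.2 and 57.4 CPM in Molm-14 EV and 26.1, 24.2 and 20.5 in Molm-14 KO. In THP-1 it was at 256, 256 and 317 CPM in EV and 237, 251 and 284 in KO. It fell by 1.33 ± 0.12 in Molm-14, and the difference was -1.22 ± 0.15 (adjusted p = 3.00e-05). MFAP4, a microfibril-associated protein, was at 67.4, 74.5 and 59.3 CPM in Molm-14 EV and 34.02, 34.2 and 29.1 in Molm-14 KO, against 1.596, 0.897 and 1.81 CPM in THP-1 EV and 2.01, 2.38 and 2.85 in THP-1 KO. Its difference of -1.798 ± 0.34 (adjusted p = 0.00751) thus combined a fall in Molm-14 with a small, uncalled value of 0.75 at a low level in THP-1. COL8A2, a chain of collagen VIII, went the other way, at 5.72, 6.302 and 5.14 CPM in Molm-14 EV and 19.8, 15.03 and 12.97 in Molm-14 KO, beside 72.7, 71.9 and 86.6 CPM in THP-1 EV and 69.4, 68.5 and 80.9 in THP-1 KO. It rose by 1.47 ± 0.18 in Molm-14, with a difference of 1.55 ± 0.21 (adjusted p = 0.000135). OLFML3, a secreted olfactomedin-like protein, was called in neither line (-1.35 in Molm-14 and 0.66 in THP-1) but had a difference of -2.01 ± 0.46 (adjusted p = 0.0258), a call kept when 1 library was left out in 7 of 12 fits (highest adjusted p = 0.170, without Molm-14 KO 2, and 0.157 without both libraries that stood apart). 

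Genes of 3 transcription factors were among the 12 largest negative differences that met the naming rule. The rule took called genes with at least 1 CPM in each line and 50 counts on average. FOXD1, a forkhead factor, was at 29.6, 19.7 and 23.1 CPM in Molm-14 EV and 6.62, 6.39 and 6.09 in Molm-14 KO. In THP-1 it was at 51.3, 47.4 and 54.5 CPM in EV and 50.9, 50.3 and 56.5 in KO. The Molm-14 groups did not overlap, the THP-1 groups did, and the difference was -1.95 ± 0.21 (adjusted p = 4.33e-06). FOXP2, another forkhead factor, was at 51.8, 69.5 and 61.3 CPM in Molm-14 EV and 29.1, 25.5 and 27.03 in Molm-14 KO, and at 213, 228 and 226 CPM in THP-1 EV and 234, 241 and 214 in THP-1 KO, with a difference of -1.21 ± 0.14 (adjusted p = 8.14e-06). TCF23, a basic helix-loop-helix protein, was at 9.42, 7.54 and 9.76 CPM in Molm-14 EV and 2.52, 2.79 and 2.34 in Molm-14 KO, and its groups overlapped in THP-1, at 26.1, 19.6 and 18.3 CPM in EV and 26.4, 24.5 and 27.1 in KO. Its difference was -2.05 ± 0.28 (adjusted p = 0.000108). In MV4-11, neither FOXP2 (0.11) nor TCF23 (0.11) passed the test, and FOXD1 was at or near 0.

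CTSG, the cathepsin G protease of the primary granule that early myeloid cells make in quantity, was at 488, 396 and 435 CPM in Molm-14 EV and 255, 243 and 226 in Molm-14 KO. In THP-1 it was at 2649, 2477 and 2433 CPM in EV and 3406, 3066 and 3182 in KO. The groups did not overlap in either line and were ordered in opposite ways. CTSG fell by 0.86 ± 0.10 in Molm-14 and stood at 0.35 ± 0.09 in THP-1, which did not pass (adjusted p = 0.215), and the difference was -1.21 ± 0.13 (adjusted p = 4.33e-06). Of the 21 primary granule and progenitor genes tested it was the only one called in the difference (0.766% of all genes tested were called). At an unadjusted p under 0.05, 4 were lower (3.75% of all genes tested) and 2 higher (4.04%), and the median was -0.11. MPO, the myeloperoxidase of the same granule, fell by 1.11 in Molm-14 from 85.9 to 39.7 CPM, and its difference of -0.74 ± 0.19 had an adjusted p of 0.0739. PRTN3, the granule protease proteinase 3, fell by 0.61 in Molm-14, with a difference of -0.61 ± 0.16 (adjusted p = 0.101), and ELANE, neutrophil elastase, had -0.41 ± 0.26 (adjusted p = 0.812).

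The remaining named genes of large negative difference had varied roles. PTPRG, a receptor tyrosine phosphatase, was at 4.71, 5.85 and 3.96 CPM in Molm-14 EV and 1.73, 1.197 and 1.41 in Molm-14 KO, with a difference of -1.46 ± 0.30 (adjusted p = 0.0110) that was called in 10 of 12 fits (highest adjusted p = 0.0860, without Molm-14 KO 2). CD59, an inhibitor of the complement membrane attack complex, was at 19.3, 14.5 and 18.6 CPM in Molm-14 EV and 11.97, 10.5 and 10.6 in Molm-14 KO, and at 12.1, 12.6 and 12.1 CPM in THP-1 EV and 18.97, 15.3 and 16.3 in THP-1 KO. It fell in Molm-14, did not pass in THP-1 (0.46, adjusted p = 0.442) and rose in MV4-11 by 1.03, and the difference between Molm-14 and THP-1 was -1.11 ± 0.22 (adjusted p = 0.00751). CAV1 and CAV2, the caveolins of membrane caveolae and neighbours on chromosome 7, 16453 bases apart, both had negative differences. CAV1 was at 3.195, 4.502 and 2.901 CPM in Molm-14 EV and 1.73, 1.06 and 1.25 in Molm-14 KO, and its difference of -1.44 ± 0.32 (adjusted p = 0.0222) was called in 7 of 12 fits (highest adjusted p = 0.166, without Molm-14 EV 2, and 0.137 without both libraries that stood apart). CAV2 rested on 34 counts over the 3 Molm-14 EV libraries and 5 over the 3 KO libraries, a ratio of EV to KO of 6.15 with a counting interval of 2.39 to 20.1. The difference for CAV2 (-2.51 ± 0.60, adjusted p = 0.0489) was called in 1 of 12 fits (highest adjusted p = 0.249, without Molm-14 KO 2, and 0.211 without both libraries that stood apart) and was lost when replicate numbers were used as a block in THP-1 (adjusted p = 0.0667). MT2A, a metallothionein that binds zinc and copper, was called in neither line (-0.48 in Molm-14, 0.55 in THP-1), and its difference of -1.03 ± 0.24 (adjusted p = 0.0289) was kept in 4 of 12 fits (highest adjusted p = 0.172, without THP-1 KO 2, and 0.104 without both libraries that stood apart). SELENOP, a secreted selenium carrier, was at 21.5, 18.9 and 19.6 CPM in Molm-14 EV and 7.25, 8.12 and 8.44 in Molm-14 KO, and with 10 counts over the THP-1 EV libraries and 21 over THP-1 KO its difference of -2.41 ± 0.53 (adjusted p = 0.0195) was kept in 8 of 12 fits (highest adjusted p = 0.145, without THP-1 KO 2, and 0.0742 without both libraries that stood apart).

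**Figure D2:**
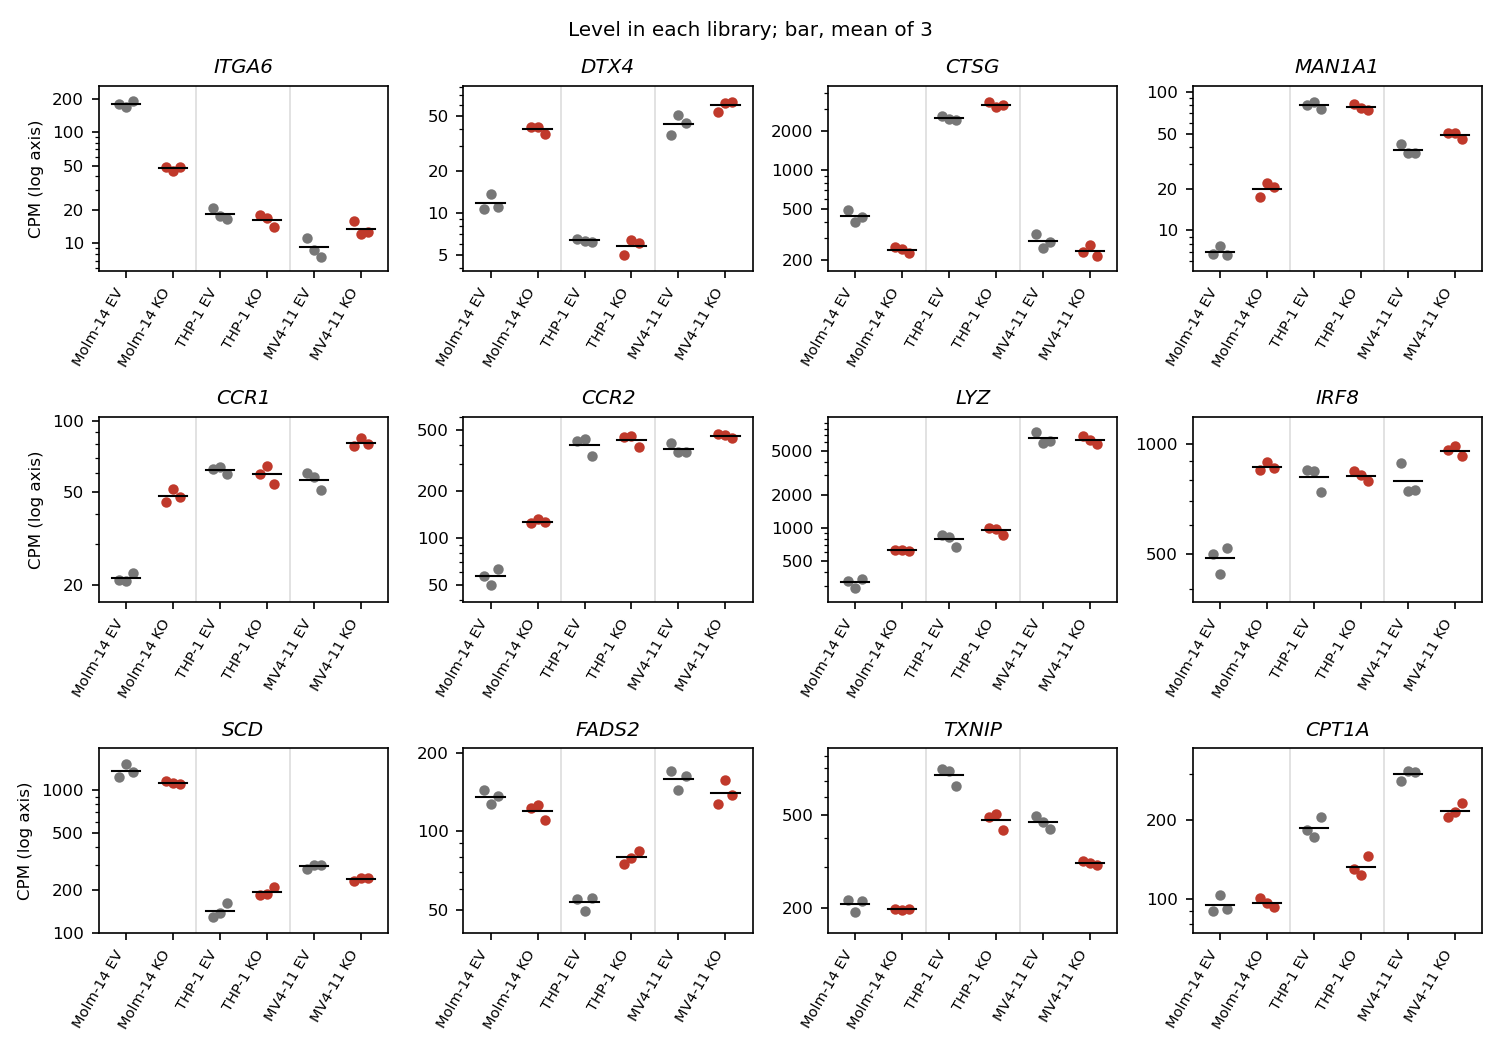
Level in CPM on a log axis of 12 genes in each of the 18 knockout-experiment libraries, with control (EV) libraries in grey, knockout (KO) libraries in red and the mean of 3 as a bar. ITGA6 and CTSG are lower and DTX4, MAN1A1, CCR1, CCR2, LYZ and IRF8 higher in Molm-14 KO than in Molm-14 EV, and the shifts of SCD, FADS2, TXNIP and CPT1A in THP-1 are not matched in Molm-14.

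Chemokine receptors were among the genes of positive difference. CCR1 (ENSG00000163823, chr3:46201711-46208313), a receptor for inflammatory CC chemokines, was at 20.9, 20.7 and 22.4 CPM in Molm-14 EV and 45.2, 51.2 and 47.3 in Molm-14 KO. It was at 62.5, 63.8 and 59.6 CPM in THP-1 EV and 59.5, 64.6 and 54.1 in THP-1 KO. CCR2 (ENSG00000121807, chr3:46353864-46360940), the receptor for CCL2 that draws monocytes from marrow and blood, was at 56.8, 49.5 and 63.3 CPM in Molm-14 EV and 124, 132 and 127 in Molm-14 KO, and at 419, 437 and 338 CPM in THP-1 EV and 449.8, 451 and 386 in THP-1 KO. In Molm-14 every KO library was above every EV library for both genes, and in THP-1 the groups overlapped for both. The differences were 1.23 ± 0.13 for CCR1 (adjusted p = 4.33e-06) and 1.07 ± 0.14 for CCR2 (adjusted p = 4.86e-05). The genes lie 145551 bases apart on chromosome 3, and CCR1 overlaps CCR3, a gene on the other strand that averaged 0.619 CPM over the Molm-14 libraries. These were the 2 called of 10 chemotactic receptors tested (0.766% of all genes tested were called), and the list's median difference was -0.14. CXCR4, the receptor that retains cells in marrow, rose by 0.49 in Molm-14, and its difference of 0.33 ± 0.15 did not pass (adjusted p = 0.580). In MV4-11, CCR1 rose by 0.53 (adjusted p = 0.000800) and CCR2 stood at 0.28 (adjusted p = 0.0769).

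Genes of the maturing monocyte and macrophage gave 2 calls in 26 tested, both positive, where 0.518% of all genes tested were called with a positive difference. At an unadjusted p under 0.05, 6 were positive (4.04% of all genes tested) and 0 negative (3.75%), and the median difference was 0.17. CD36, a scavenger receptor that takes up fatty acids and oxidised lipoproteins, was at 19.2, 16.5 and 20.04 CPM in Molm-14 EV and 32.4, 30.7 and 31.9 in Molm-14 KO, and at 71.2, 74.6 and 59.3 CPM in THP-1 EV and 68.03, 69.2 and 53.4 in THP-1 KO, with a difference of 0.88 ± 0.16 (adjusted p = 0.00272). LYZ, lysozyme, was at 332, 285 and 347 CPM in Molm-14 EV and 626, 627 and 624 in Molm-14 KO, and at 867, 829 and 674 CPM in THP-1 EV and 997, 986 and 866 in THP-1 KO. LYZ was also the 1 member called of 11 myeloid identity genes (0.766% of all genes tested were called), with a median of 0.03. It differed by degree, with 0.96 in Molm-14 and 0.27 in THP-1, and its difference of 0.70 ± 0.15 (adjusted p = 0.0121) was called in 11 of 12 fits (highest adjusted p = 0.0556, without THP-1 EV 1). CD14, CD86, VCAN and ITGAX of the same list were not called, and VCAN was at 1.58 with an adjusted p of 0.400. Without Molm-14 EV 2 and THP-1 EV 3 the list's median was 0.083.

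IRF8, a transcription factor that directs monocytes and dendritic cells, was at 499, 441 and 518 CPM in Molm-14 EV and 851, 894 and 860.2 in Molm-14 KO. It was at 849.8, 843 and 741 CPM in THP-1 EV and 846, 824 and 793 in THP-1 KO. The level in Molm-14 KO was at or above that of every THP-1 library, the difference was 0.82 ± 0.12 (adjusted p = 0.000185), and the gene rose by 0.27 in MV4-11 (adjusted p = 0.0463). FOS, an early response transcription factor, was at 6.56, 7.32 and 7.78 CPM in Molm-14 EV and 14.2, 13.3 and 13.6 in Molm-14 KO. Its difference was 1.06 ± 0.18 (adjusted p = 0.00225). FOS was the 1 member called among 30 early response and MAPK feedback genes (0.766% of all genes tested were called), whose median difference was -0.03. IRF8 was the 1 member called of 16 lymphoid and dendritic regulators (0.766% of all genes tested were called), with a median of 0.11. PPARG, a nuclear receptor activated by fatty acids, was at 0.336, 0.338 and 0.923 CPM in Molm-14 EV and 2.05, 2.66 and 2.97 in Molm-14 KO, against 22.1, 25.6 and 17.6 CPM in THP-1 EV and 21.1, 22.4 and 19.8 in THP-1 KO. The difference for PPARG was 2.27 ± 0.41 (adjusted p = 0.00328), on 12 counts over the Molm-14 EV libraries and 52 over the KO libraries. PPARG was under 1 CPM in MV4-11.

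S100A4, a calcium-binding protein of motile cells, rose by 0.77 in Molm-14. It was the 1 member called of 10 S100 and granulocyte genes (0.766% of all genes tested were called). Their median difference was 0.23, and DESeq2 also called S100A9. The S100A4 difference of 0.58 ± 0.13 (adjusted p = 0.0166) was kept in 7 of 12 fits (highest adjusted p = 0.0868, without Molm-14 EV 2, and 0.0598 without both libraries that stood apart). HLA-B, a class I antigen-presenting molecule, was at 222, 203 and 195 CPM in Molm-14 EV and 335, 353 and 314 in Molm-14 KO, and at 422, 384 and 386 CPM in THP-1 EV and 456, 433 and 438 in THP-1 KO. Its difference was 0.54 ± 0.12 (adjusted p = 0.0163), called in 7 of 12 fits (highest adjusted p = 0.0855, without Molm-14 KO 2). It was the 1 member called of 18 class I genes (0.766% of all genes tested were called), whose median difference was -0.04. Reads of class I genes can be split between near-identical copies. None of the 10 class II genes tested was called by edgeR or DESeq2. At an unadjusted p under 0.05, 2 were positive (4.04% of all genes tested), and the median was 0.25.

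DTX4, an E3 ubiquitin ligase of the Deltex family that acts on Notch signalling, was at 10.6, 13.6 and 11.1 CPM in Molm-14 EV and 41.6, 41.4 and 36.7 in Molm-14 KO. In THP-1 it was at 6.52, 6.28 and 6.16 CPM in EV and 4.94, 6.39 and 6.03 in KO. The difference was 1.88 ± 0.24 (adjusted p = 3.00e-05), and DTX4 also rose in MV4-11, by 0.45 (adjusted p = 0.0210). The 3′ ends of DTX4 and MPEG1, the gene of the macrophage pore-forming protein perforin-2, overlap by 78 bases on opposite strands of chromosome 11, and MPEG1 had a difference of 1.37 ± 0.28 (adjusted p = 0.00948) with a mean of 5.19 CPM in Molm-14 EV and 14.04 in Molm-14 KO. The sources used here do not give the strand setting of the counting, and the part of shared reads in either value was not tested. JAG2, a ligand of Notch, had 3 counts over the Molm-14 EV libraries and 29 over the KO libraries, a ratio of 10.7 with a counting interval of 3.31 to 54.9. Its difference was 3.27 ± 0.66 (adjusted p = 0.00948), kept in 9 of 12 fits (highest adjusted p = 0.0660, without Molm-14 KO 2, and 0.0844 without both libraries that stood apart). DTX4 and JAG2 were the 2 called of 16 Notch and Deltex genes tested (0.766% of all genes tested), and the list's median difference was -0.0025.

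The other named genes of large positive difference were mostly low in Molm-14 EV and high in THP-1. For genes of at least 1 CPM in each line, the naming rule asked for 50 counts on average. A gene at a few CPM in Molm-14 thus entered only with a higher level in THP-1. CHST2 and SULF2, called but under 50 counts, had differences of 1.70 and 2.06. They were at 4.61 and 1.76 CPM in Molm-14 EV and at 3.19 and 2.54 CPM in THP-1 EV. NRN1, also under 50 counts, was at 0.474 and 7.19 CPM. MAN1A1, a mannosidase that trims N-glycans in the Golgi, was at 6.73, 7.77 and 6.59 CPM in Molm-14 EV and 17.5, 21.95 and 20.6 in Molm-14 KO. In THP-1 it was at 80.5, 84.6 and 75.6 CPM in EV and 82.5, 77.2 and 74.4 in KO. Its difference was 1.54 ± 0.16 (adjusted p = 3.76e-06). SLC8A1, a sodium-calcium exchanger, was at 3.53, 1.46 and 3.16 CPM in Molm-14 EV and 8.03, 8.52 and 7.34 in Molm-14 KO, and at 265, 273 and 252 CPM in THP-1 EV and 271, 283 and 244 in THP-1 KO, with a difference of 1.595 ± 0.23 (adjusted p = 0.000194). CLSTN2, a calsyntenin membrane protein, was at 0.504, 1.01 and 0.659 CPM in Molm-14 EV and 4.41, 3.06 and 4.22 in Molm-14 KO, and at 169, 190.02 and 256 CPM in THP-1 EV and 150.3, 144 and 178 in THP-1 KO. Its difference of 2.702 ± 0.42 (adjusted p = 0.00119) was the largest among genes of at least 1 CPM in both lines and 50 counts on average, and CLSTN2 fell by 0.99 in MV4-11. BASP1, a membrane-associated signalling protein, rose in Molm-14 from 1.71 to 4.98 CPM and had a difference of 1.52 ± 0.24 (adjusted p = 0.000793). Among these named genes C12orf75 was the exception in level. It was at 6.39, 7.32 and 8.704 CPM in Molm-14 EV and 20.9, 21.95 and 22.03 in Molm-14 KO. In THP-1 it was at 6.92, 6.88 and 6.16 CPM in EV and 6.94, 4.9004 and 3.69 in KO, with a difference of 1.88 ± 0.27 (adjusted p = 0.000240).

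SLC9A7, a sodium-proton exchanger of the Golgi, and ZNF302, a zinc finger protein, had differences of 2.07 ± 0.38 and 1.67 ± 0.28, with adjusted p-values of 0.00403 and 0.00134. Both also rose in MV4-11, by 1.04 and 0.41. BICDL1, an adaptor of dynein transport, had 1.46 ± 0.35 (adjusted p = 0.0351), was called in neither line, and was kept in 5 of 12 fits (highest adjusted p = 0.216, without Molm-14 EV 3, and 0.0742 without both libraries that stood apart). MYO1E, a class I myosin, was at 0.841, 0.900 and 1.05 CPM in Molm-14 EV and 2.36, 1.597 and 2.66 in Molm-14 KO. Its difference of 1.44 ± 0.35 (adjusted p = 0.0459) was kept in 2 of 12 fits (highest adjusted p = 0.202, without Molm-14 KO 3, and 0.177 without both libraries that stood apart) and was lost with the replicate block in THP-1 (adjusted p = 0.0638). GLRB, the beta subunit of the glycine receptor, had 1 count over the Molm-14 EV libraries and 28 over the KO libraries, a ratio of 31.0 with a counting interval of 5.12 to 1266, and SVIP, an inhibitor of protein degradation at the endoplasmic reticulum, had 0 and 19 counts, which is 7.01-fold against the 3 counts that a sum of 0 allows, with a counting interval of the ratio that began at 5.16. Both were at similar levels in THP-1 EV and THP-1 KO, with log2 fold changes of -0.07 and 0.02, and the calls for the difference (adjusted p = 0.00924 and 0.0493) were kept in 10 of 12 fits (highest adjusted p = 0.0611, without Molm-14 KO 3) for GLRB and in 3 of 12 fits (highest adjusted p = 0.245, without Molm-14 KO 2, and 0.172 without both libraries that stood apart) for SVIP.

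**Figure D3:**
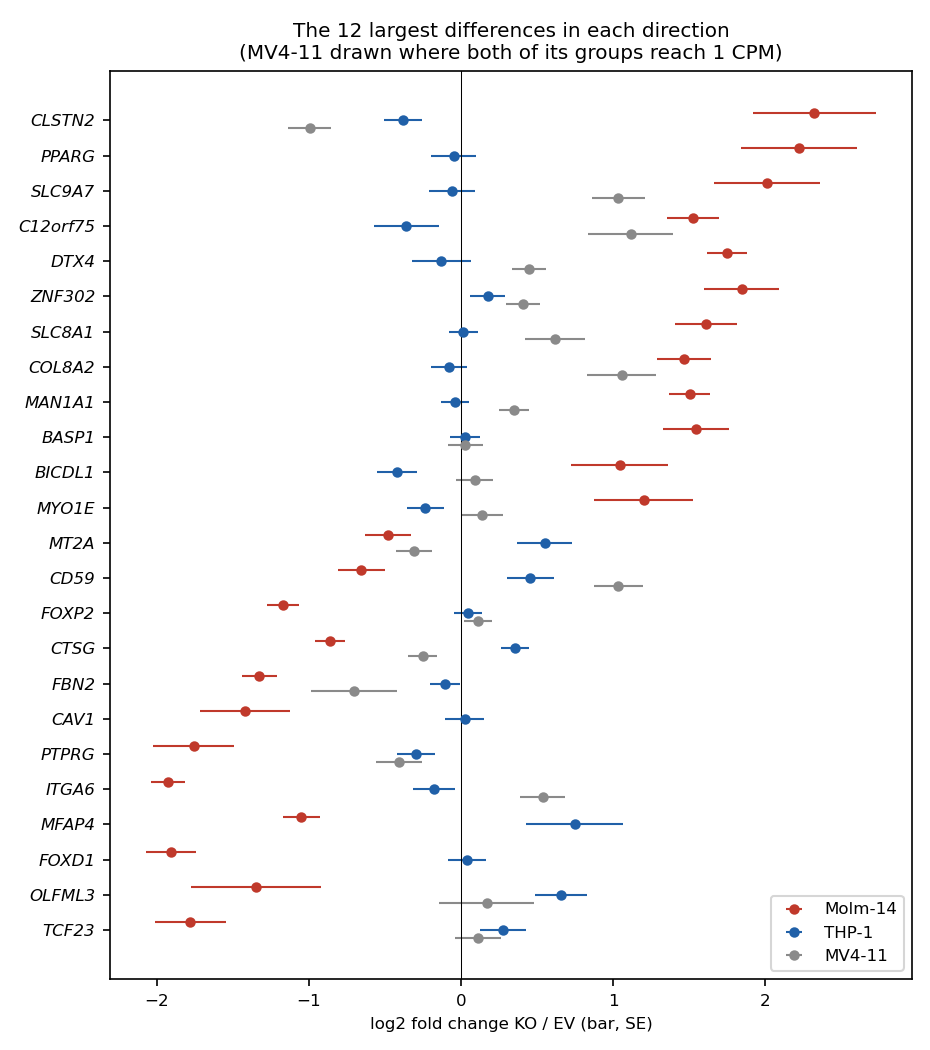
Log2 fold change of knockout over control, with its standard error, in Molm-14 (red), THP-1 (blue) and, where both groups reached 1 CPM, MV4-11 (grey), for the 12 genes with the largest difference in each direction, ordered by the difference. The THP-1 values run from -0.42 for BICDL1 to 0.75 for MFAP4, those of Molm-14 run from -1.93 for ITGA6 to 2.32 for CLSTN2, and the MV4-11 values fall on either side.

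Most genes of positive difference were low in the Molm-14 controls. Molm-14 EV was below THP-1 EV for 63 of the 75, where this held for 51.0% of all genes tested, and it was below both THP-1 EV and MV4-11 EV for 49 of the 75, against 33.8% of all genes tested. The EV libraries enter the difference too, so that a low EV value by itself raises the difference, and these shares are a description. Among the 36 genes of negative difference Molm-14 EV was below THP-1 EV for 22 and below both lines for 11. RNA of genes that 1 line held and another lacked was also counted, with EV libraries used in the choice of genes and KO libraries of the lacking line not used. At 20 CPM or more in every THP-1 library and under 0.2 CPM in Molm-14 EV there were 58, none reached 1 CPM in Molm-14 KO, 53 stayed under 0.2 CPM there, and their median level was 0.044 CPM in both Molm-14 groups. Of 34 such genes of MV4-11, 27 stayed under 0.2 CPM in Molm-14 KO and none reached 1 CPM. In THP-1, the median of 14 such genes of Molm-14 was 0.0551 CPM in EV and 0.206 in KO, with 6 under 0.2 CPM in KO, and the median of 16 such genes of MV4-11 was 0.0604 in EV and 0.154 in KO, with 9 under 0.2 CPM. None of these reached 1 CPM in THP-1 KO, and the part of RNA from another line in the results was not tested.

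Some genes of the 111 that the naming rule did not cover were picked after their values were seen, for what they are known to do in myeloid cells. MS4A6A and MS4A4A, membrane proteins of the macrophage, had differences of 0.84 and 0.90, while MS4A3, a marker of granulocyte and monocyte progenitors in the same cluster on chromosome 11, had -0.82. MS4A6A rose in Molm-14 from 31.6 to 65.2 CPM, and MS4A3 fell from 108 to 68.5 CPM. LILRB1 and LILRB4, inhibitory immunoglobulin-like receptors 5867 bases apart on chromosome 19, had differences of 2.22 and 0.65. ALOX5AP, needed for leukotriene synthesis, had 0.89 and CYP1B1, a cytochrome P450, had 0.79. On the negative side stood MNDA, a myeloid nuclear antigen (-0.85), KYNU, kynureninase of tryptophan breakdown (-0.63), GLO1, the glyoxalase that clears methylglyoxal from glycolysis (-0.78), and ABCA1, the cholesterol exporter (-0.69). ABCA1 and LILRB1 were called in neither line. When 1 library was left out, the calls for MS4A6A, MS4A3, ALOX5AP and GLO1 were kept in 12 of 12 fits, LILRB1 and CYP1B1 in 5, ABCA1 in 6, MS4A4A, LILRB4 and KYNU in 8 and MNDA in 10. Without both libraries that stood apart, MS4A4A (0.115), LILRB4 (0.0896) and KYNU (0.0858) were above an adjusted p of 0.05. Just inside the threshold lay SVIP and GIMAP8, with adjusted p-values of 0.0493 and 0.0499, and just outside it OSR2 and MYBPH, both at 0.0561.

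The 13 genes called in THP-1 included genes of glucose sensing and lipid metabolism. TXNIP (ENSG00000265972, chr1:145992435-145996579, minus strand) encodes an arrestin that limits glucose uptake and is switched on by the glucose-sensing factors MondoA and ChREBP, and ARRDC4 is a related arrestin under the same factors. These factors bind carbohydrate response elements, pairs of E-box-like motifs 5 bases apart. RefSeq promoter windows on GRCh38.p14, 250 bases before to 50 after the start, were searched on both strands for 2 copies of CACGNG with 5 bases between them, found in 0.057% of 35116 windows, and for the E-box CACGTG, found in 7.26%. The windows are shown, 30 bases each and 5′ to 3′ on the gene's strand with the match in capitals, because these genes both fell in THP-1 and the test of the difference between the lines was passed by TXNIP and not by ARRDC4.
TXNIP, chr1:145996644-145996673, minus strand: gatgtgCACGAGGGCAGCACGAGcctccgg
ARRDC4, chr15:97960481-97960510, plus strand: aaacggcctgtgCACGTGcacgccggagcc
The paired motif began 88 bases before the start of TXNIP and was not found in the ARRDC4 window, which held a single E-box 210 bases before its start. A match of letters is a description and does not show binding. No other arrangement of the pair and no bases outside the windows were searched. The missing match therefore does not show that ARRDC4 lacks such an element.

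TXNIP was at 216, 191 and 213 CPM in Molm-14 EV and 197, 196 and 197 in Molm-14 KO. It was at 789, 775 and 669 CPM in THP-1 EV and 489, 508 and 433 in THP-1 KO. The THP-1 groups were well apart, and the Molm-14 groups overlapped and lay under both. TXNIP fell by 0.64 ± 0.08 in THP-1 (adjusted p = 6.67e-05) and by 0.59 in MV4-11 (adjusted p = 7.27e-05), and was at -0.07 ± 0.08 in Molm-14, with a difference of 0.57 ± 0.11 (adjusted p = 0.00862). ARRDC4 was at 14.5, 15.5 and 15.03 CPM in Molm-14 EV and 9.77, 9.58 and 10.2 in Molm-14 KO, and at 81.5, 74.2 and 72.7 CPM in THP-1 EV and 39.6, 36.7 and 36.7 in THP-1 KO. It fell in both lines, by 0.61 ± 0.12 in Molm-14 and by 1.02 ± 0.09 in THP-1, and the difference of 0.40 (95% interval 0.09 to 0.72, unadjusted p = 0.0149) did not pass after adjustment (0.395). Of 8 genes of this list tested TXNIP was the 1 called (0.766% of all genes tested were called), and the median difference was 0.17. ARRDC3, the arrestin of adrenergic receptors, was at 0.45 in Molm-14 and 0.43 in THP-1, with a difference of 0.01.

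CPT1A, which admits long-chain fatty acids to mitochondria for oxidation, was at 89.97, 103 and 90.99 CPM in Molm-14 EV and 100.3, 96.5 and 92.5 in Molm-14 KO. It was at 182, 172 and 205 CPM in THP-1 EV and 130.05, 123 and 145 in THP-1 KO. CPT1A fell by 0.49 ± 0.08 in THP-1 and by 0.46 in MV4-11, and was at 0.02 ± 0.09 in Molm-14. The difference of 0.52 ± 0.12 (adjusted p = 0.0355) was called in 3 of 12 fits (highest adjusted p = 0.151, without THP-1 KO 2, and 0.0522 without both libraries that stood apart). SCD, the desaturase that makes monounsaturated fatty acids, was at 128, 137 and 161 CPM in THP-1 EV and 184, 187 and 209.8 in THP-1 KO, and at the much higher 1244, 1521 and 1336 CPM in Molm-14 EV and 1157, 1130.4 and 1106 in Molm-14 KO. SCD rose by 0.45 ± 0.09 in THP-1 and stood at -0.27 ± 0.08 in Molm-14 (adjusted p = 0.0922), so the groups were ordered in opposite ways, and the difference was -0.72 ± 0.12 (adjusted p = 0.00166). FADS2, a desaturase of polyunsaturated fatty acids, was at 55.1, 49.6 and 55.4 CPM in THP-1 EV and 75.1, 79.3 and 84.4 in THP-1 KO, and at 144, 128 and 136 CPM in Molm-14 EV and 123, 127 and 110.3 in Molm-14 KO. Its difference was -0.76 ± 0.13 (adjusted p = 0.00229). FADS1, which overlaps FADS2 on the other strand, had -0.39 ± 0.11 (adjusted p = 0.111). FADS2, SCD and CPT1A were the 3 members called of 26 fatty acid genes tested, where 0.766% of all genes tested were called, and the median of the list was -0.02. FASN, the fatty acid synthase, had a difference of -0.73 ± 0.56 and ACLY, which makes cytosolic acetyl-CoA from citrate, had 0.04 ± 0.10, and neither passed.

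The cholesterol synthesis list had small differences, nearly all of 1 sign, and no member was called in the difference (DESeq2 called 1, DHCR7). Of 24 genes tested, 23 had a difference under 0, which held for 52.1% of all genes tested, the median was -0.25, and 7 were negative and 1 positive at an unadjusted p under 0.05 (3.75% and 4.04% of all genes tested). Knockout gave values above 0 for 23 of the 24 in THP-1 (50.7% of all genes tested) and for 9 of the 24 in Molm-14 (48.4%). ACAT2, which condenses acetyl-CoA at the start of the pathway, was at 135, 139.8 and 109 CPM in THP-1 EV and 195, 196 and 166 in THP-1 KO, and rose by 0.54 ± 0.10 there against 0.01 ± 0.10 in Molm-14. DHCR7, the enzyme of the last step, was at 33.1, 31.7 and 30.6 CPM in THP-1 EV and 46.7, 45.3 and 49.3 in THP-1 KO, and rose by 0.56 ± 0.11 there against -0.02 ± 0.10 in Molm-14. Their differences were -0.53 ± 0.14 (adjusted p = 0.101) and -0.58 ± 0.15 (adjusted p = 0.0600). With the replicate block in THP-1, ACAT2 was called (adjusted p = 0.0325). PMVK, phosphomevalonate kinase, was the exception, at 0.59 ± 0.22 (adjusted p = 0.338). The median of the list was -0.20 without THP-1 EV 3 and ran from -0.30 to -0.20 over all fits that left out 1 library.

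**Figure D4:**
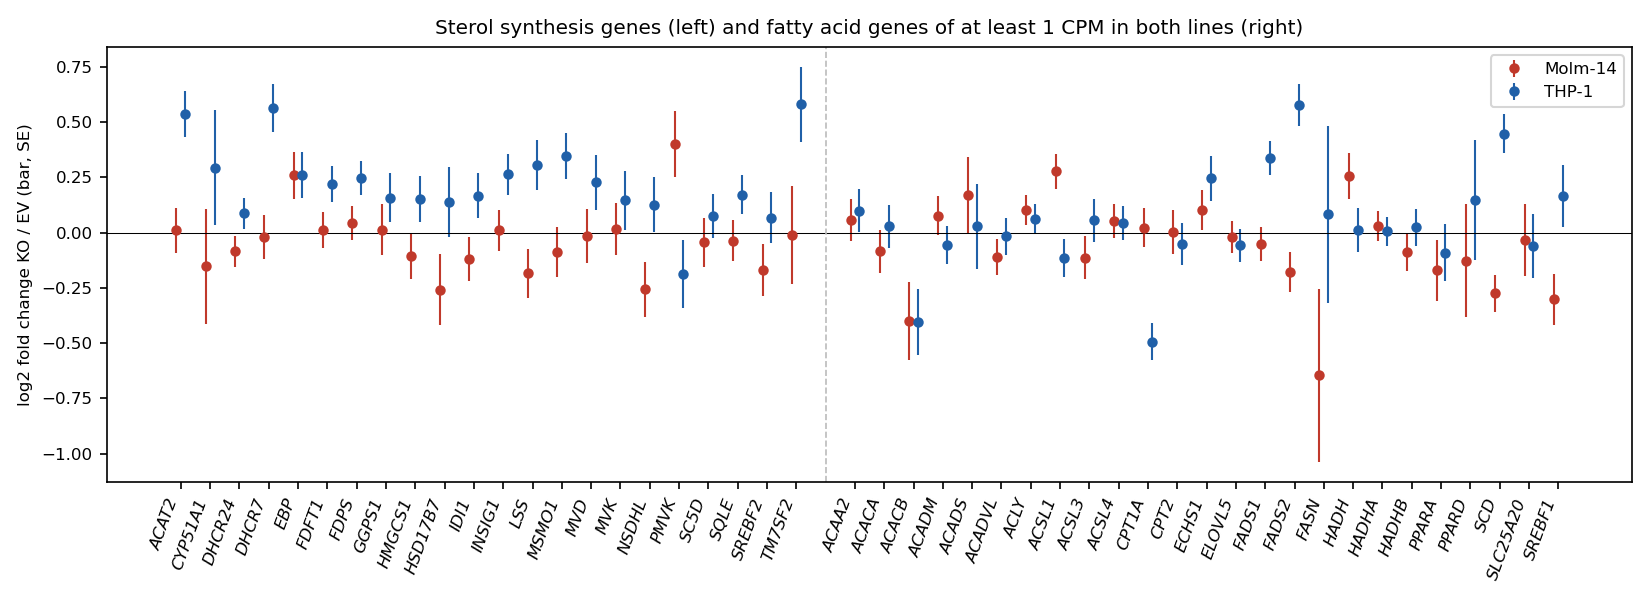
Log2 fold change of knockout over control, with its standard error, in Molm-14 (red) and THP-1 (blue) for 22 of the sterol synthesis genes (left of the dashed line) and for the fatty acid genes of at least 1 CPM in both lines (right). The blue points of the sterol genes lie above 0 for 21 of 22 genes and the red ones for 8 of 22, and FADS2, SCD and CPT1A show the called differences.

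The other genes called in THP-1 were not shown to differ between the lines. IMPDH2, a step of guanine nucleotide synthesis, rose by 0.45 in THP-1 and had a difference of -0.35 ± 0.12 (adjusted p = 0.305). SAMSN1, an adaptor of lymphocyte and myeloid signalling, rose by 0.67 in THP-1 against 0.01 in Molm-14, with -0.66 ± 0.18 (adjusted p = 0.107). S100A8, a subunit of calprotectin, rose in both, by 1.08 in Molm-14 and 0.59 in THP-1. BMP8B, a bone morphogenetic protein, fell by 0.39 in THP-1, with a difference of 0.24 ± 0.13, and SERPINB10, a protease inhibitor, rose by 0.73 there but was under 1 CPM in every Molm-14 library, so that its difference was bounded only to -2.88 to 1.68. The THP-1 calls rested on few libraries, since leaving out 1 THP-1 library gave 3 to 10 calls, with 3 without THP-1 KO 2 and 10 without THP-1 KO 3.

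Pathways nearer to the deleted carrier held no called difference. None of 20 pyruvate carrier and dehydrogenase genes, 26 genes of the citric acid cycle, 76 nuclear and 13 mitochondrially encoded genes of oxidative phosphorylation, 21 glycolysis genes or 17 glutamine genes was called, with median differences of 0.04, 0.03, -0.05, 0.12, 0.05 and 0.02. At an unadjusted p under 0.05 these lists held 1, 1, 1, 0, 3 and 1 genes. Over all genes tested, 4.04% were positive and 3.75% negative at that threshold. DESeq2 called none of them either. None of 26 genes of the ATF4 amino acid response, 18 of the BCL2 family, 15 of the HOXA and MEIS1 programme, 41 of DNA replication and mitosis, 21 of TNF and NF-kB signalling and 72 ribosomal protein genes was called, with medians of -0.08, 0.07, 0.07, 0.06, 0.04 and -0.12. At an unadjusted p under 0.05 these held 4, 1, 1, 3, 4 and 1 genes, and DESeq2 called 1, the ribosomal gene RPS21. Interferon-stimulated genes had a difference under 0 for 32 of 39 members (52.1% of all genes tested) and a median of -0.23, with none called by edgeR or DESeq2 and 9 negative at an unadjusted p under 0.05 (3.75% of all genes tested). IFITM1, which blocks viral entry, fell by 1.61 in Molm-14, and its difference of -1.83 ± 0.53 had an adjusted p of 0.130. OAS3 and HERC5, an oligoadenylate synthase and an ISG15 ligase, fell in Molm-14 by 0.97 and 0.62, with differences of -0.84 ± 0.27 and -0.52 ± 0.19 that did not pass.

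MV4-11, whose libraries are not part of the difference, gave values on both sides. Knockout changed 784 genes in MV4-11 (5.41%). Of the 75 genes of positive difference 54 had a log2 fold change above 0 there, which held for 52.1% of all genes tested, with 16 called higher (3.17% of all genes tested) and 6 called lower (2.24%), and a median of 0.16. Of the 36 genes of negative difference 18 were above and 15 below 0 (46.2% of all genes tested were below), with 5 called higher, 2 called lower and a median of 0.0014. CCR1 and DTX4 rose in MV4-11 as in Molm-14 but by less. CCR1 was at 0.53 in MV4-11, 1.17 in Molm-14 and -0.06 in THP-1, and DTX4 at 0.45, 1.75 and -0.13. TXNIP and CPT1A fell in MV4-11 and in THP-1. Whether the Molm-14 effect differed from the MV4-11 effect was not tested.

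The 3 KO libraries were above the 3 EV libraries of Molm-14 for 73 of the 75 genes, where this held for 8.39% of all genes tested, and below them for 36 of the 36 genes of negative difference (8% of all genes tested). Over all genes tested 16.4% had no overlap in Molm-14 in either direction. In THP-1 the groups did not overlap for 26 of the 75 (13.6% of all genes tested in either direction), with 6 higher (6.8% of all genes tested) and 20 lower (6.79%), and for 13 of the 36, all higher. The test that called the genes used the same libraries, so these counts describe the calls and do not add to them. The genes were spread over the genome, and neighbouring genes made up 12 pairs within 500000 bases of each other among the 111, and 9 of the pairs shared a direction. No such count was made over all genes tested, so the pairs are a description and were not tested against chance.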

How the data were processed

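RNA was measured in 18 libraries of the MPC1 experiment, of which 12 are of Molm-14 and THP-1. Libraries were made with a stranded, ribosome-depleted total RNA kit. Per the submitters' processing notes the authors used cutadapt 1.16, STAR 2.7.6a, featureCounts 1.6.3 and GRCh38, and deposited whole-number counts per Ensembl gene that had not been normalized. Whether the strand was used in counting is not given in the sources used here. The table held 58051 genes, and symbols and positions came from GENCODE release 44, which held 56948 of them. All columns belonged to libraries of the series, and the overexpression table was not used. Values of a few single genes are not reported here.

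Counts were tested with edgeR 4.0.16 in R 4.3.3 (TMM scaling, filterByExpr, robust quasi-likelihood, 1 mean for each of 6 groups, Benjamini-Hochberg over 14490 genes), with the contrast of Molm-14 KO minus EV less THP-1 KO minus EV, two-sided. The code was tested on simulated data. SE was taken as the fold change over the square root of F, and intervals are 95%. Floors, ratios and counting intervals (exact binomial) rest on sums over 3 libraries and cover counting error only. Genes were named by rule: MPC1 and MPC2, the 12 largest differences in each direction among called genes with at least 1 CPM in each line and 50 counts on average, the 3 largest below 1 CPM in 1 line, every gene called in THP-1, and called members of the gene lists with up to 4 others. The genes and lists were chosen with earlier results of these data known. Deviations of same-numbered KO and EV libraries from their group means correlated at 0.371, 0.258 and 0.584 in THP-1, over 9824 genes of at least 8 CPM. In Molm-14 the values were -0.107, -0.248 and 0.275. Differently numbered THP-1 pairs ran from -0.524 to 0.361 (KO 1 with EV 2), so pairing by number was not clear for every pair. A replicate block was tried in THP-1 alone and in each line. Replicate pairs differed by more than counting noise (chi-square per degree of freedom from 1.50 to 7.81). Other alternatives were DESeq2 1.42.0, RLE scaling, no filter, only genes of 1 CPM in both lines, each line's libraries alone, leaving out each library and, chosen after seeing the data, leaving out both libraries that stood apart.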

Additional observations from a re-analysis of the deposited data

Results flagged for a closer look

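The knockout effect differed between Molm-14 and THP-1 for 111 genes in the test of the difference itself, and the values below are the log2 differences, Molm-14 less THP-1, of the named genes among them. For transcription factors they were 0.82 for IRF8, 1.06 for FOS, 2.27 for PPARG, -1.95 for FOXD1, -1.21 for FOXP2, -2.05 for TCF23 and 1.67 for ZNF302. For receptors, ligands and other signalling proteins they were 1.23 for CCR1, 1.07 for CCR2, 0.88 for CD36, 3.27 for JAG2, 1.88 for DTX4, 4.57 for GLRB, -1.46 for PTPRG and 1.46 for BICDL1. For proteins of adhesion, matrix and membrane they were -1.75 for ITGA6, -1.22 for FBN2, -1.798 for MFAP4, 1.55 for COL8A2, -2.01 for OLFML3, -1.44 for CAV1, -2.51 for CAV2, -1.11 for CD59, 2.702 for CLSTN2, 1.52 for BASP1 and 1.44 for MYO1E. For granule, secreted and antigen-presenting proteins they were 0.70 for LYZ, -1.21 for CTSG, -2.41 for SELENOP, 0.58 for S100A4, 0.54 for HLA-B and -1.03 for MT2A. For transport and metabolism they were 0.57 for TXNIP, 0.52 for CPT1A, -0.72 for SCD, -0.76 for FADS2, 2.07 for SLC9A7, 1.595 for SLC8A1 and 1.54 for MAN1A1. For other proteins they were 5.73 for SVIP and 1.88 for C12orf75. Groups of 3 libraries are too small for a test of single outlying libraries. Each value is described in the report beside its libraries, and no explanation was weighed.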

How the results depend on the processing

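The count of genes whose effect differed stayed within 1.5 times of 111 under every alternative run. It was 138 with DESeq2 (108 of them among the 111), 159 with no filter, 115 with RLE scaling, 115 with the libraries of Molm-14 and THP-1 alone, 108 with only genes of 1 CPM in both lines, and 78 (without Molm-14 EV 3) to 108 (without THP-1 EV 3) when 1 library was left out. With the replicate block in THP-1 it was 127, with 108 of the 111 kept, and with a replicate block in each line 111, with 96 shared. The block in THP-1 lost CAV2, GIMAP8 and MYO1E and added ACAT2 among the genes named. No result reversed. Of the 111 genes, 53 were called under all 12 fits that left out 1 library and all 8 other alternatives.

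The counts in single lines moved more. In THP-1 the 13 genes became 20 with DESeq2, 30 with no filter, 6 with both libraries that stood apart left out, and 3 to 10 when 1 THP-1 library was left out. In Molm-14 the 348 became 183 (without Molm-14 KO 2) to 293 (without Molm-14 EV 1). In MV4-11 the 784 became 356 with its libraries alone, 1474 with the replicate block in each line, 1230 with the replicate block in THP-1 only, and 133 (without MV4-11 EV 3) to 1400 (without MV4-11 EV 1). Leaving out a library gives fewer samples, and the cause of the other shifts was not tested. Among the named genes, 895 values kept their side of the threshold, 111 lost the call and 8 gained it, all 8 of the last for ACAT2, DHCR7 or SAMSN1.

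At 5339360 to 9106478 counts a library, a gene at 1 CPM had fewer than 10 counts, so calls such as CAV2, SVIP, GLRB and JAG2 rest on few reads. Each knockout group was 3 libraries of 1 line with 1 guide, so an effect of the guide cannot be told apart from one of the knockout.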

Other observations

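Chromosome 8 held 9 of the 111 genes among 514 tested there (1.75%), chromosome 13 held 4 of 268 (1.49%), and chromosomes 21 and 22 held none of 147 and 346. These shares are a description and were not tested against chance.

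NRN1, IPCEF1, KLF10 and CD93 were picked after their values were seen. NRN1, which encodes the neuronal protein neuritin, was at 0.841, 0.450 and 0.132 CPM in Molm-14 EV and 5.04, 6.52 and 3.91 CPM in Molm-14 KO. In THP-1 it was at 9.31, 6.28 and 5.98 CPM in EV and 11.6, 9.21 and 11.4 CPM in KO. The log2 fold change was 3.49 in Molm-14 and 0.55 in THP-1. In MV4-11, where EV averaged 0.174 CPM, it was 1.35 and did not pass (adjusted p = 0.293). The ratio of KO to EV in Molm-14 was 11.7 with a counting interval of 6.13 to 25.2, on 10 and 106 counts over 3 libraries, and the difference was 2.94 ± 0.46 (adjusted p = 0.000589). IPCEF1, which interacts with cytohesin exchange factors, and KLF10, a transcription factor induced by TGF-beta, had differences of 1.28 ± 0.27 and 0.79 ± 0.19. KLF10 was called in neither line and fell in MV4-11, by 0.52. CD93, a receptor of early myeloid cells, rose in Molm-14 by 0.48 and fell in MV4-11 by 0.80, with THP-1 at -0.04. When 1 library was left out, the call for the difference was kept in 12 of 12 fits for NRN1, 9 for IPCEF1, 11 for CD93 and 1 for KLF10, and without both libraries that stood apart CD93 and KLF10 had adjusted p-values of 0.0799 and 0.0781.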
